A study of Sus scrofa with 6 samples.

Results

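The genes described here are those of prostaglandin synthesis, breakdown and reception: the phospholipase PLA2G4A, the cyclooxygenases PTGS1 and PTGS2, the prostaglandin E synthases PTGES, PTGES2 and PTGES3, the reductases AKR1B1 and CBR1, the dehydrogenase HPGD and the prostaglandin F receptor PTGFR. They were found by symbol in the annotation of the Affymetrix porcine array, and every probe set (the group of oligonucleotides that reads 1 transcript) with 1 of these symbols was taken. Of the 10 genes, 6 are named there, by 9 of the 23999 probe sets tested. PLA2G4A, PTGES2, AKR1B1 and HPGD are not named by a probe set and were not analysed here. CBR1 and PTGES hold 1 probe set each, as does PTGS2, while PTGS1, PTGES3 and PTGFR hold 2 each.

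Laparoscopy was used in crossbred Landrace x Large White sows to place spermatozoa in 1 oviduct and the same volume of semen diluent (BTS) in the opposite oviduct. On day 6 the uterine horn of the inseminated side held blastocysts (3 arrays, the embryo horns) and the other horn of the same sow held unfertilized oocytes (3 arrays, the oocyte horns). Both horns thus shared 1 animal and its hormones, both were flushed before sampling, and the mucosa near the utero-tubal junction was scraped with a glass slide, which gives a mixed cell sample rather than pure epithelium. The 3 sows are numbered 1 to 3.

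Prostaglandins are made from arachidonic acid that phospholipase A2 frees from membranes. Cyclooxygenase turns it into prostaglandin H2, and prostaglandin E synthases make prostaglandin E2 from that. Prostaglandin F2alpha comes from prostaglandin H2 or, through carbonyl reductase, from prostaglandin E2, and acts on PTGFR. In the pig, endometrial prostaglandin F2alpha ends the life of the corpora lutea in a cycle without pregnancy, and prostaglandin E2 is held to protect them.

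The values are linear signals, in arbitrary units, that the authors obtained from Microarray Suite 5.1. The median signal of an array lay between 30.6 and 35.8, and 25.4% to 29.0% of its signals were under 10. Epithelial markers (6 of 6 named, KRT8, KRT18, KRT19, CDH1, EPCAM and MUC1) summed to 7391 to 10058 in embryo horns and 7580 to 9845 in oocyte horns. Markers of stroma (5 of 6 named) summed to 3220 to 6559 in embryo horns and 3305 to 7022 in oocyte horns. Those of smooth muscle (5 of 6) summed to 682 to 1550 in embryo horns and 561 to 2273 in oocyte horns. Those of endothelium (4 of 4) summed to 181 to 272 in embryo horns and 187 to 240.3 in oocyte horns. Those of leukocytes (4 of 6) summed to 63.2 to 87.1 in embryo horns and 51.1 to 111 in oocyte horns. Those of red blood cells (2 of 3) summed to 423 to 942 in embryo horns and 362 to 966 in oocyte horns, and those of glands (2 of 2) to 444 to 512 in embryo horns and 336 to 523 in oocyte horns. The ranges of the groups overlapped in each list, and none of the 4 markers of ciliated cells is named on the array. Within sows the sum was higher with embryos in 1 sow for epithelium, stroma, leukocytes and red blood cells. It was higher in 2 sows for smooth muscle, endothelium and glands. A sum can hide opposed genes: in sows 1, 2 and 3 the ratios of embryos to oocytes were 1.24, 7.36 and 1.09 for SPP1. At the brighter FOXA2 probe set, the other gland marker, they were 0.79, 0.70 and 0.98. In such a mixed sample, fewer cells of a type and less RNA per cell cannot be told apart. GAPDH is also read at the 5' and 3' ends of its transcript, and a low 5'/3' ratio marks RNA that is broken or only partly copied. This ratio was lower in the embryo horn of every sow, at 0.130 to 0.243 in embryo horns and 0.200 to 0.355 in oocyte horns. The same ratio of actin was also lower in the embryo horn of every sow, at 0.058 to 0.149 against 0.105 to 0.219. The part of these ratios in the results below was not tested.

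None of the 9 probe sets passed the test between the groups. The fit was limma on log2 signals normalized between arrays, with Benjamini-Hochberg adjustment over all probe sets at 0.05, and it called 0 of 23999 (0%). Each member had an adjusted p of 1.00. With limma 0 of the 9 members had an unadjusted p under 0.05, against 2.88% of the array. The unadjusted p of the members from this fit ran from 0.385 to 0.939. With the sow as a block, which pairs the horns, limma gave an unadjusted p of 0.0110 to 0.937 and an adjusted p of 0.436 to 0.991. The log2 differences, embryos minus oocytes, ran from -0.28 to 0.67 with a median of -0.03, beside a median of 0.01 over all probe sets. The embryo and oocyte horns overlapped for 9 of 9 member probe sets, where 4.03% of all probe sets had the 3 embryo horns above the 3 oocyte horns and 3.98% had them below.

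**Figure D1:**
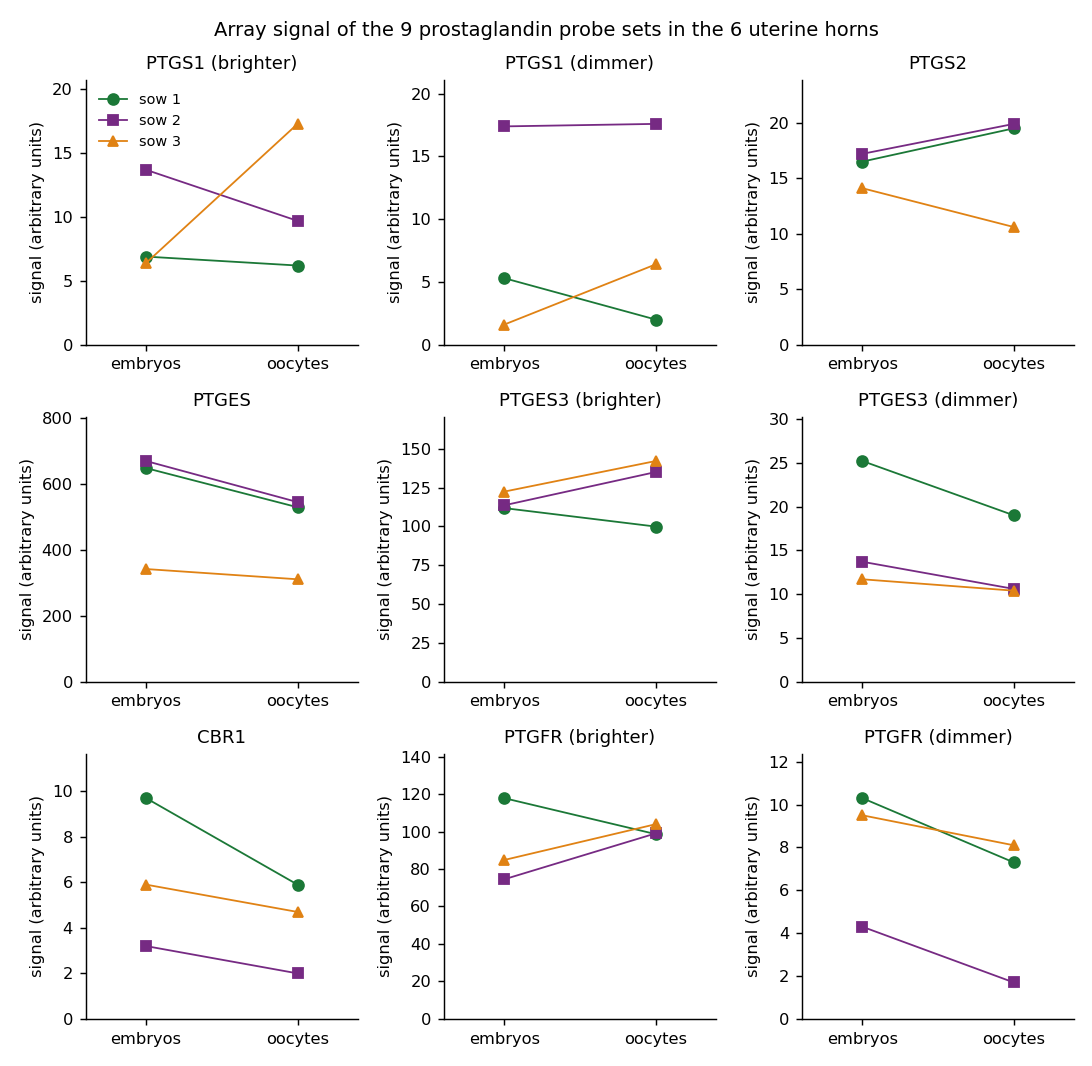
Deposited array signal (y axis, arbitrary units, from 0) of each of the 9 probe sets in the embryo horn (left) and the oocyte horn (right). Each symbol and line is 1 sow, and the lines of all 3 sows slope the same way for PTGES, CBR1 and the dimmer probe sets of PTGES3 and PTGFR, with embryo horns higher.

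Among the enzymes that make prostaglandin E2, PTGES is the microsomal synthase, which works together with PTGS2 in many tissues. Its signal was 649, 671 and 343 in the embryo horns of sows 1, 2 and 3, against 530.2, 546 and 311 in the oocyte horns. The embryo horn was the higher one in each sow, and sow 3 was the lowest in both horns, so that the groups overlapped. The ratios of embryos to oocytes were 1.22, 1.23 and 1.10, and the means were 554 ± 184 with embryos and 463 ± 131 with oocytes (SD, n = 3 each). On the normalized log2 scale the difference was 0.24 (standard error 0.30, unadjusted p = 0.453 from limma), with a 95% interval from -0.46 to 0.94. With the sow as a block, which pairs the horns, the standard error was 0.077, the 95% interval ran from 0.069 to 0.41 and the unadjusted p from limma was 0.0110, at an adjusted p of 0.436. That fit put 8.7% of the array under an unadjusted 0.05. Of the 9 members only PTGES was at that level with the block, with log2 differences of 0.28, 0.29 and 0.15 in sows 1, 2 and 3. The difference was -0.03 without the oocyte horn of sow 3 in the fit without the block, and 0.56 without its embryo horn. Both leave sow 3, the lowest, in 1 group only. With both horns of sow 1, 2 or 3 left out the difference was 0.22, 0.22 and 0.28. In the paired fit of the remaining sows the unadjusted p from limma was 0.0646 without sow 1, 0.0790 without sow 2 and 0.00372 without sow 3. The adjusted p from limma in these fits of 2 pairs was 0.776, 0.837 and 0.144. They were run after the data were seen, and the fit without sow 3 called 203 probe sets of the array.

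PTGES3 is a cytosolic prostaglandin E synthase that is also known as p23, a co-chaperone of HSP90. Its brighter probe set had a signal of 112, 114 and 122 in the embryo horns of sows 1, 2 and 3, against 99.9, 135 and 142 in the oocyte horns. The embryo horn was higher in sow 1 and lower in sows 2 and 3, with a log2 difference of -0.11 (standard error 0.17, unadjusted p = 0.560 from limma). The dimmer probe set had 25.2, 13.7 and 11.7 with embryos, against 19.0, 10.6 and 10.4 with oocytes. It was higher in the embryo horn of each sow and highest in both horns of sow 1, with a log2 difference of 0.30 (standard error 0.42, unadjusted p = 0.501 from limma). The probe sets of this gene thus differed in sign, and both intervals contained 0 (-0.50 to 0.29 for the brighter and -0.67 to 1.27 for the dimmer).

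The cyclooxygenases, which catalyse the committed step of prostanoid synthesis, were read by dim probe sets. For PTGS2, the inducible enzyme, the signal was 16.5, 17.2 and 14.1 in the embryo horns of sows 1, 2 and 3, against 19.5, 19.9 and 10.6 in the oocyte horns. It was lower with embryos in sows 1 and 2 and higher in sow 3, and the means of 15.9 ± 1.63 with embryos and 16.7 ± 5.26 with oocytes (SD, n = 3 each) differed by less than either SD. The log2 difference was -0.03 (standard error 0.39, 95% interval -0.91 to 0.85). In the current pig gene table the annotated span of PTGS2 overlaps that of PLA2G4A, which frees the substrate for it but is not named on the array.

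PTGS1, the constitutive cyclooxygenase, had 6.90, 13.7 and 6.40 in the embryo horns of sows 1, 2 and 3 at its brighter probe set, against 6.20, 9.70 and 17.3 in the oocyte horns. Its dimmer probe set had 5.30, 17.4 and 1.60 with embryos, against 2.00, 17.6 and 6.40 with oocytes. At both probe sets the embryo horn of sow 3 was below its oocyte horn, with log2 differences of -1.52 and -2.11 in that sow, while sow 1 had 0.10 and 1.35 and sow 2 had 0.58 and 0.08. Over the 3 sows the log2 difference was -0.28 (standard error 0.60) for the brighter and -0.23 (standard error 1.08) for the dimmer. Without sow 3 these were 0.34 and 0.72. At the dimmer probe set both horns of sow 2 stood far above the other 4 horns.

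CBR1, the carbonyl reductase that in the pig reduces prostaglandin E2 and steroids, had a signal of 9.70, 3.20 and 5.90 in the embryo horns of sows 1, 2 and 3, against 5.90, 2.00 and 4.70 in the oocyte horns. The embryo horn was higher in every sow, with ratios of 1.64, 1.60 and 1.26, at signals below 10 on all 6 arrays. The log2 difference was 0.55 (standard error 0.66, unadjusted p = 0.427 from limma), and it was 0.089 without the oocyte horn of sow 2, the dimmest of the 6. Without both horns of sow 2 it was 0.43. A brighter probe set is given by the annotation to both CBR1 and LOC100622246, a gene with the synonym CBR3 that neighbours CBR1 with 0 protein-coding genes between them, and was not counted among the 9. It had 143, 166 and 163 with embryos, against 146, 172 and 143 with oocytes. The log2 difference there was 0.03 (standard error 0.15, 95% interval -0.30 to 0.36), with the embryo horn higher in sow 3 alone.

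PTGFR, the receptor of prostaglandin F2alpha, had a signal of 118, 74.5 and 84.8 in the embryo horns of sows 1, 2 and 3 at its brighter probe set, against 98.6, 99.0 and 104 in the oocyte horns. The oocyte horns lay within a few units of each other, and the embryo horns spread to both sides of them (92.4 ± 22.6 with embryos and 100.5 ± 2.95 with oocytes, SD, n = 3 each). The log2 difference was -0.15 (standard error 0.19, 95% interval -0.60 to 0.29). The dimmer probe set had 10.3, 4.30 and 9.50 with embryos, against 7.30, 1.70 and 8.10 with oocytes. It was higher in the embryo horn of each sow, by ratios of 1.41, 2.53 and 1.17, and the log2 difference was 0.67 (standard error 0.73, unadjusted p = 0.385 from limma). As for PTGES3, the probe sets of PTGFR differed in sign and neither passed the test. Without the oocyte horn of sow 2, the dimmest of the 6, the dimmer probe set lay at -0.05, and without both horns of sow 2 at 0.28.

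**Figure D2:**
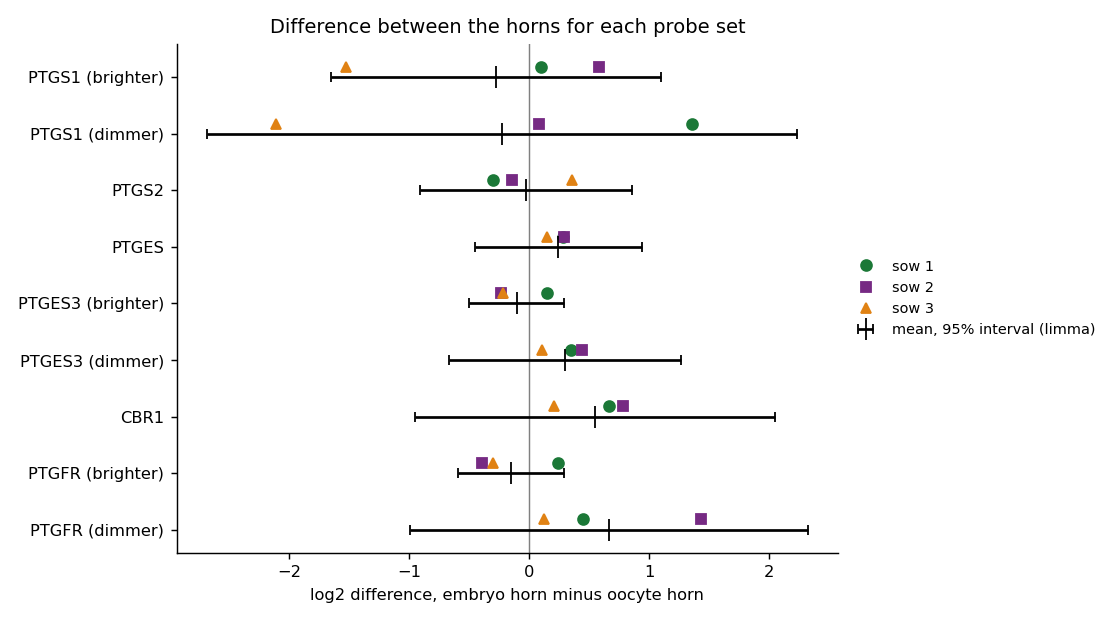
Log2 difference of the normalized signal, embryo horn minus oocyte horn (x axis), for each of the 9 probe sets (y axis). Coloured symbols are the 3 sows and the black bars give the mean difference with its 95% interval from limma without the sow as a block, and all 9 intervals contain 0.

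Probe sets above the median signal had smaller standard errors than those below it. This is in part built in, as the fit pulls each variance towards a trend with signal. It did not hold among the bright ones, where PTGES was the brightest and had the largest standard error. The 3 probe sets above the median signal of the array (PTGES and the brighter ones of PTGES3 and PTGFR) had standard errors of 0.17 to 0.30 on the log2 scale, and the 6 below it had 0.39 to 1.08, at deposited signals of 1.60 to 25.2. For the brighter PTGFR probe set the 95% interval ran from a fold of 0.661 to 1.22, and for the dimmer PTGS1 probe set from 0.155 to 4.71, both from the fit without the sow. With the sow as a block the log2 interval of the brighter PTGFR probe set was -0.49 to 0.18, against -0.60 to 0.29 without it. The block gave -0.38 to 0.17 for the brighter PTGES3, -0.87 to 0.81 for PTGS2 and -1.93 to 1.47 for the dimmer PTGS1. Of the 9 members, only PTGES had an interval with the block that did not contain 0. The size of the dim differences also depended on the scale. With 32 added to each signal before the log2 step, the 6 dimmer probe sets lay between -0.072 and 0.098, and the dimmer one of PTGFR was at 0.084 and CBR1 at 0.075. PTGES was at 0.22 on that scale.

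**Figure D3:**
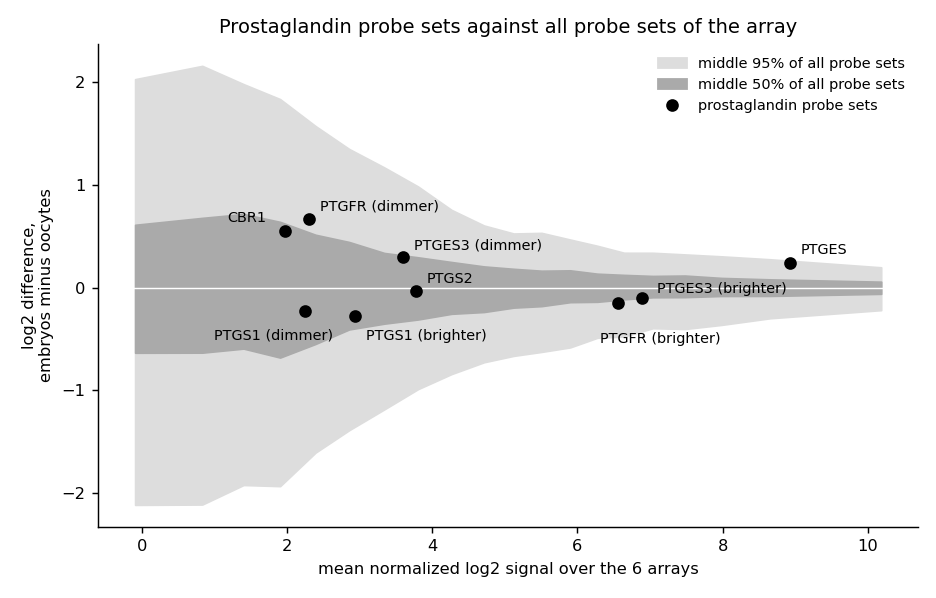
Log2 difference, embryos minus oocytes (y axis), against the mean normalized log2 signal of the 6 arrays (x axis). Black points are the 9 prostaglandin probe sets and the grey bands give the middle 50% and the middle 95% of all 23999 probe sets in 20 bins of signal, and all 9 points lie within the wider band.

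Within sows, 4 of the 9 probe sets were higher with embryos in all 3 sows (PTGES, CBR1, and the dimmer ones of PTGES3 and PTGFR) and 0 were lower in all 3, where 14.9% of all probe sets were higher and 14.8% lower in all 3 sows. Among the 3 probe sets above the median signal, only PTGES had the same direction in every sow. For 7 of the 9 probe sets the means of the sows spanned a wider range than the largest difference between the horns of a sow. The share of the whole array with this pattern was not counted, so it is not read as a trait of these genes. For PTGES the means of the sows spanned 0.89 on the log2 scale, and the horns of a sow differed by at most 0.29. The exceptions were the brighter probe sets of PTGS1 (1.04 between sows and 1.52 between horns) and PTGFR (0.30 and 0.40).

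The other genes of the pathway were taken from lists of 68 symbols, of which 38 are named by 54 probe sets. Of these 54, 0 passed the adjusted threshold with limma, and 1 had an unadjusted p under 0.05 from limma without the block and 4 with it, against 2.88% and 8.7% of all probe sets. The embryo horn was higher in all 3 sows for 5 of the 54 and lower in all 3 for 8, where 14.9% and 14.8% of all probe sets were. The median log2 difference was -0.06, beside 0.01 over all probe sets.

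In arachidonate release, 9 of 18 symbols are named by 13 probe sets. PLAA, the phospholipase A2-activating protein, had 79.1, 69.2 and 84.9 in the embryo horns of sows 1, 2 and 3 at 1 of its 3 probe sets, against 64.3, 32.8 and 67.4 in the oocyte horns. All 3 embryo horns lay above all 3 oocyte horns, where 4.03% of all probe sets had this pattern. The log2 difference was 0.56 (standard error 0.28), at an unadjusted p of 0.0798 from limma without the block and of 0.0148 with it. Without the oocyte horn of sow 2 the difference was 0.24, and the other PLAA probe sets lay at 0.14 and -0.07. ACSL4, which couples arachidonate to coenzyme A, had 175, 273 and 222 with embryos, against 161, 222 and 189 with oocytes. It was higher in each sow by a log2 difference of 0.21 (standard error 0.19). With the block the standard error was 0.094 and the unadjusted p from limma was 0.0461. The log2 difference of ACSL4 was 0.062 without the embryo horn of sow 2, which left that sow, its brightest, in the oocyte group only. With both horns of sow 1, 2 or 3 left out it was 0.27, 0.17 and 0.20. MGLL, a monoacylglycerol lipase, was higher in each sow as well at the brighter of its 2 probe sets, at 0.26 (standard error 0.32), and the dimmer lay at 0.28 (standard error 0.98). PLA2G7, a phospholipase A2 of platelet-activating factor that was singled out after its values were seen, was lower in each sow, at -0.21 (standard error 0.31). With the block its standard error was 0.081 and the unadjusted p from limma was 0.0296.

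Among the other prostanoid enzymes 12 of 18 symbols are named by 14 probe sets, and 0 had an unadjusted p under 0.05 from limma with or without the block. PTGR2, a reductase of 15-keto-prostaglandin E2 and thus a step after HPGD, had 284, 346 and 299.6 in the embryo horns of sows 1, 2 and 3, against 315, 359 and 333 in the oocyte horns. It was lower with embryos in each sow, with a log2 difference of -0.12 (standard error 0.12). AKR1C1, an aldo-keto reductase, was dim and lay at 0.91 (standard error 0.85), with 0.30 without sow 1 and 2.03 without sow 3. AKR1CL1, of the same family, lay at -0.50 (standard error 0.54) at the dimmest of its 3 probe sets, and the brighter ones lay at 0.30 and -0.22.

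Of the receptor list 5 of 12 symbols are named by 10 probe sets. PTGFRN, a membrane protein that limits the binding of prostaglandin F2alpha to PTGFR, lay at -0.53 (standard error 0.46) and 0.78 (standard error 0.68) at the dimmer ones of its 3 probe sets, and at 0.12 (standard error 0.17) at the brightest. PPARD, a nuclear receptor that binds fatty acid derivatives, lay at 0.35 (standard error 0.33) at the brightest of its 3 probe sets and at 0.42 and -0.0078 at the others. The first of these was 0.0020 without sow 1. SLCO3A1, an organic anion transporter that carries prostaglandins, is the only transporter named of the 3 listed. The brightest of its 4 probe sets lay at 0.01 (standard error 0.24), with mean signals of 304 in embryo horns and 302 in oocyte horns, and the dimmer ones lay at -0.58, -0.25 and -0.21. In the lipoxygenase branch, which makes leukotrienes from the same substrate, 4 of 9 symbols are named. The leukotriene receptor CYSLTR1 lay at -1.74 (standard error 0.91, unadjusted p = 0.0909 from limma), with 12.7, 0.700 and 4.50 in embryo horns and 11.3, 11.7 and 10.8 in oocyte horns. It was -0.63 without sow 2, -2.67 without sow 1 and -0.20 with 32 added to each signal. ALOX15, a lipoxygenase, lay at 0.28 (standard error 0.52), and PTGR1, which inactivates leukotriene B4 and 15-keto-prostaglandins, at 0.03 (standard error 0.19).

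Signals upstream of the pathway were named for 8 of 9 symbols. ESR1, the oestrogen receptor, had 41.2, 45.4 and 43.9 in the embryo horns of sows 1, 2 and 3, against 80.9, 48.7 and 68.3 in the oocyte horns. All 3 embryo horns lay below all 3 oocyte horns, with a log2 difference of -0.58 (standard error 0.23). Its unadjusted p from limma was 0.0373 without the block and 0.0189 with it, and its adjusted p was 1.00. IL1B, a cytokine that induces PTGS2 in many cells, lay at -1.47 (standard error 0.91) at a dim probe set, and at -0.42 without the embryo horn of sow 1. Its other probe set, singled out after its values were seen, had 48.9, 42.6 and 56.8 with embryos, against 43.5, 39.0 and 43.0 with oocytes, a log2 difference of 0.23 (standard error 0.21). IL1R1, its receptor, has probe sets that differed in sign. The brighter had 98.5, 95.4 and 69.2 in the embryo horns of sows 1, 2 and 3, against 109.5, 118 and 81.4 in the oocyte horns. It was lower with embryos in each sow, at -0.24 (standard error 0.22). With the block the standard error was 0.122 and the unadjusted p from limma was 0.0832. The dimmer lay at 0.64 (standard error 0.56), and at 0.075 without the oocyte horn of sow 1.

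**Figure D4:**
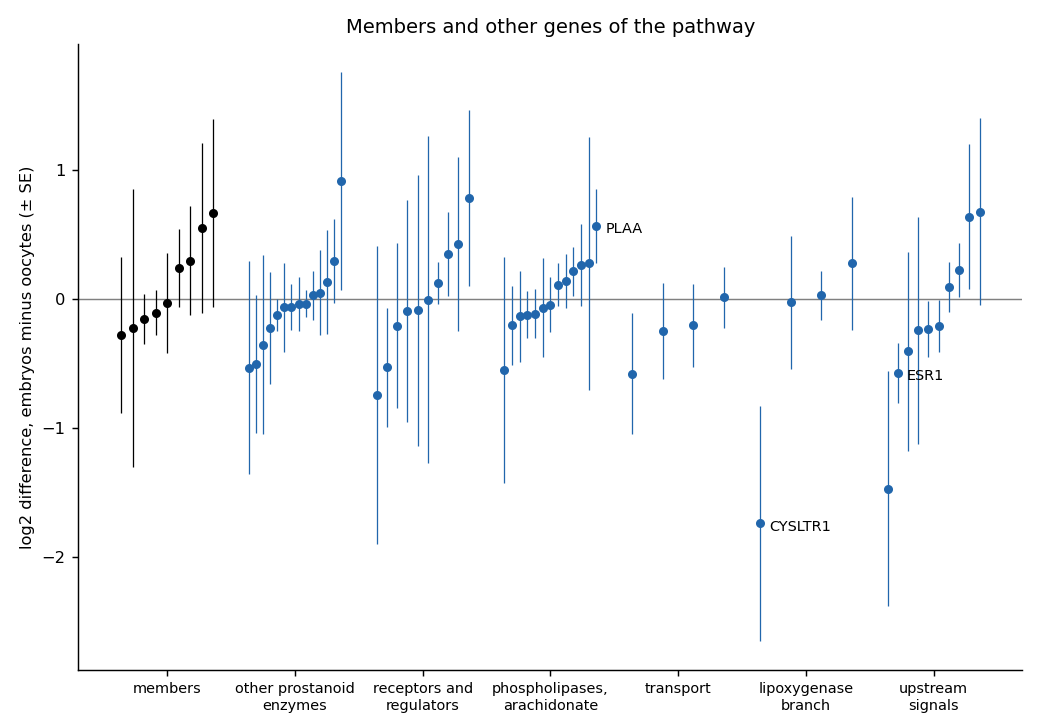
Log2 difference, embryos minus oocytes (y axis), of the 9 member probe sets (black) and of the probe sets of the 6 other lists of the pathway (blue), with bars of 1 standard error from limma. Labels mark PLAA, CYSLTR1 and ESR1, the probe sets with the smallest p, and 0 probe sets passed the adjusted threshold.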

How the data were processed

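RNA of scraped uterine mucosa from 6 horns of 3 sows on day 6 was hybridized by the authors to Affymetrix porcine arrays, 1 per horn. The deposited intensity values are signals per probe set from Microarray Suite (MAS5) version 5.1, per the labels, and each array was scaled to a mean of 100.02 after the highest and lowest 2% were left out. Arrays have no sequencing depth; precision depends on how many there are.

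Signals were floored at 0.1, put on the log2 scale and normalized by cyclic loess, 124 control probe sets were removed and 23999 tested with limma 3.58.1 in R 4.3.3 (group as the 1 term, variance trend, Benjamini-Hochberg adjustment at 0.05, no filter). The fit without the block was tested on simulated data that held no differences between sows. Changes were planted there only in probe sets above the median signal, so the test did not cover the dimmer ones. The plots were made with matplotlib 3.10.9 (Python 3.11.15). Signals and ratios are as deposited, and differences and directions are of normalized values. Each tested probe set has 1 symbol (10069), several (198) or none (13732) in the array's annotation, and 9989 annotated entries matched a current gene table, which changed 0 symbols.

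The labels number the horns 1 to 3 in each group, and the ratios that the methods print per animal equal those of equally numbered arrays, so a number stands for 1 sow. After subtraction of the group means, the 2 arrays of a sow correlated at 0.207, 0.173 and 0.100. The paper used a different test, a mixed model of probe intensities with terms for treatment, probe and array. That model has no term for the sow, so the block was an alternative here. Standard errors and intervals are from the fit without it unless stated, and so also hold the spread between sows. The members and lists were chosen with earlier results of these data known. Every member probe set is named, and of each other list up to 3 with the smallest p. The remaining probe sets of genes named in this way were added after their values were seen. Alternatives were the deposited scale, quantile normalization, an offset of 32, a filter at the median signal, no variance trend, the block, the brightest probe set of each member, and leaving out arrays or sows. Sows were also left out with the block, which was chosen after seeing the data.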

Additional observations from a re-analysis of the deposited data

How the results depend on the processing

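None of the 9 member differences changed sign under the deposited scale, quantile normalization or 32 added to each signal, but that offset made those of the dim probe sets other than PTGS2 several times smaller. The block, the variance trend and the median filter (which kept 3 of the 9) leave a difference as it is by construction. In every setting run, 0 members passed the adjusted threshold. With the replicate block 1 member (PTGES) had an unadjusted p under 0.05, against 0 without it, and so did 2088 probe sets of the array, against 692. PLAA, ACSL4 and PLA2G7 were among these with the block alone, and no call at the adjusted threshold changed. With only probe sets above the median signal 1 member was higher in all 3 sows, against 4.

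When each array or sow was left out, 5 member differences changed sign in at least 1 fit. Without a single array a sow stays in 1 group only, so that its level enters the difference. PTGES and the dimmer PTGFR changed sign in such fits alone. With whole sows left out they ran from 0.22 to 0.28 and from 0.28 to 0.94. Over all of these fits the log2 difference ran from -0.71 to 0.34 and from -1.16 to 0.72 for PTGS1 (brighter and dimmer), from -0.30 to 0.15 for PTGS2, from -0.033 to 0.56 for PTGES and from -0.049 to 1.12 for the dimmer PTGFR. The other 4 ran from -0.26 to -0.013 and from 0.039 to 0.53 for PTGES3 (brighter and dimmer), from 0.089 to 0.89 for CBR1 and from -0.35 to -0.026 for the brighter PTGFR. The probe set of CBR1 and LOC100622246 ran from -0.048 to 0.11, SLCO3A1 from -0.58 to 0.11 and from -0.43 to 0.095, ALOX15 from -0.0078 to 0.77 and PTGR1 from -0.093 to 0.15. The member median ran from -0.026 to 0.48, highest without the embryo horn of sow 3, and was 0.34 without sow 3. With the sow as a block and 1 sow left out, a fit of 2 pairs, between 0 and 1 members had an unadjusted p under 0.05 from limma, and 3, 1 and 203 probe sets of the array passed without sows 1, 2 and 3, against 0 with all sows. The cause was not tested. Dim signals limit 6 of the 9 member probe sets.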
